A study of Arabidopsis thaliana with 8 samples.

Results

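Ribosome footprints were set against mRNA in Arabidopsis thaliana under the dark condition, to show which nuclear genes had more and which had fewer footprints for their transcript level than the typical gene. The footprints came from 2 dark libraries and the mRNA from 2 dark libraries, out of 8 libraries in the series, whose other 4 are the same pair of assays under blue light. The table held 27416 loci with a coding length. Of these, 27206 were nuclear (the loci of the chloroplast and mitochondrial genomes were left out) and 4408 had enough counts in both dark assays to be tested. The labels give the dark and blue-light condition and the assay, and name no tissue, genotype, plant age, light intensity or duration. Whether the 2 replicates of a group were grown apart is not stated. A p-value below therefore reflects the spread between these libraries alone, which may be technical.

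A ribosome that is translating protects a short stretch of mRNA from RNase I, so sequencing the protected fragments counts the ribosomes on a coding sequence, and dividing by the mRNA level gives the ribosome load per transcript. Seedlings kept in darkness grow by cell elongation on stored lipid and sugar, and their plastids hold protochlorophyllide oxidoreductase in place of a working photosynthetic apparatus. Translation can be lowered by an upstream open reading frame (uORF), a short reading frame in the leader of the mRNA that ribosomes meet before the main coding sequence.

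The dark mRNA libraries held 436399 and 414885 counts over nuclear loci and the dark footprint libraries 2862042 and 3124350. In the mRNA libraries, 37% and 27.5% of the nuclear counts lay in 3 loci (AT1G40104, AT2G08986 and AT2G07981) that had 0 footprints. The footprint libraries resembled each other more closely (Spearman correlation 0.993 over the tested loci) than the mRNA libraries did (0.72), and a tested locus had few mRNA counts, so the mRNA side carried most of the error of a ratio. Of the defining genes of green tissue, CAB2, RBCS1A and RCA had at least 50 mRNA counts and 1777 footprints in each dark library, and LHCA1 had 4 and 11 mRNA counts and 382 and 428 footprints. Of the root genes, PYK10, HA2 and CASP1 were abundant in both assays and PLT1, NRT2:1 and IRT1 held at most 9 counts in any dark library. Of the seed genes, CRA1 and CRU3 held 204 to 609 footprints and the other 8 held at most 21.

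The ratio below is the fitted log2 ratio of footprints to mRNA after scaling each library so that a typical tested locus lies near 0 (median -0.08). It is therefore relative to the other tested loci and not the number of ribosomes per transcript. At a log2 ratio of 0, a locus had 5.91 footprint counts for each mRNA count. CPM are counts relative to the scaled size of the library over the tested loci. The reference table placed 1091 of the tested loci over another locus, and the counting is not stated to use strand, so their reads may belong to either. Among the genes named below these are PYK10, PSBP-1, LpxC1, DiT2.2, LHCB3, LHCB2.3, PSAD-2, GUN4, ALB1, PORB, AT3G09200, RPL15, HB-1, XTH15, TUB9, HSP101, RPT3, AT1G06760 and SPA4. CYP5, named in the closing section, is another. When libraries were scaled by total counts instead, the median of all loci fell by 1.03 on the log2 scale, and each list described below kept its distance from that median.

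Footprints and mRNA differed at most tested loci. edgeR's quasi-likelihood test with Benjamini-Hochberg adjustment at 0.05 called 3353 of 4408 loci (76.1%), of which 1642 had more footprints for their mRNA than the typical locus (37.3%) and 1711 had fewer (38.8%). The ratio was at least 2-fold away from the centre at 1259 called loci on the high side (28.6%) and 1324 on the low side (30%), at least 4-fold at 542 and 564, and at least 16-fold at 22 and 23. In CPM, the 2 footprint libraries did not overlap the 2 mRNA libraries at 3842 loci (87.2%). Under scaling by total counts the same test called 834 loci higher and 2711 lower, so the balance between the directions is set by the scaling and only the order of the loci is free of it. The quartiles of the ratio were -1.24 and 1.18, and the median SE of a ratio was 0.26.

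**Figure D1:**
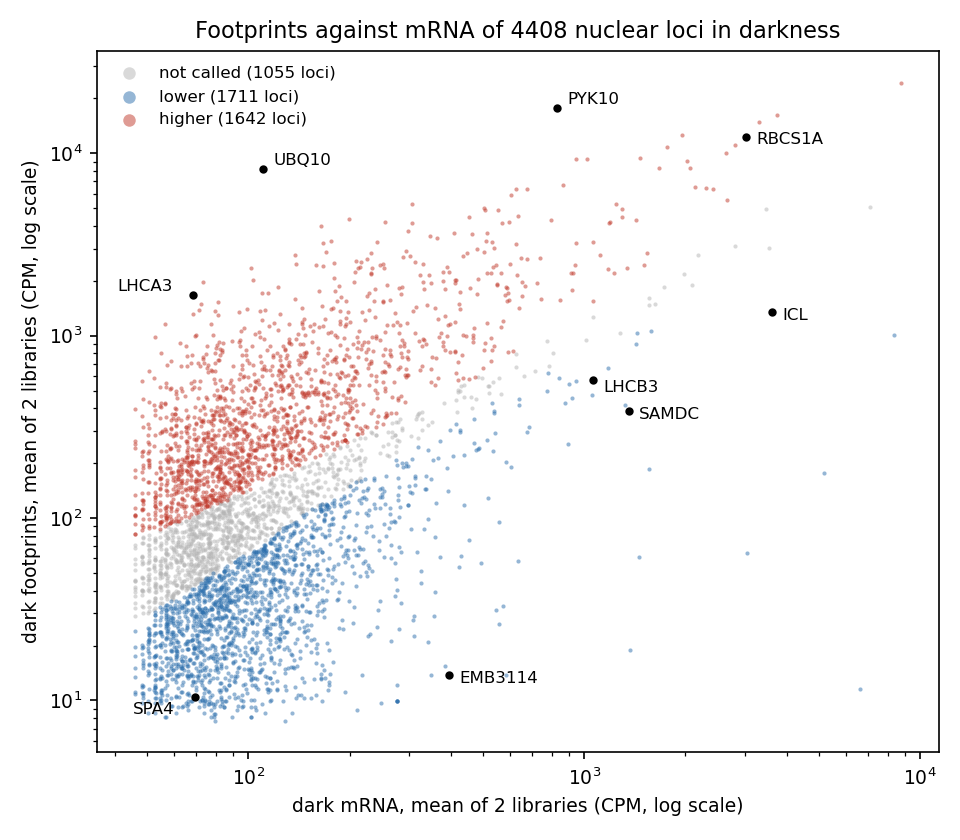
Mean CPM of dark mRNA (horizontal) against mean CPM of dark footprints (vertical), both on log scales, for each of the 4408 tested loci, coloured by the call. Footprints spread far more widely than mRNA: UBQ10 and EMB3114 lie at means of 110.6 and 395 CPM of mRNA and at 8212 and 13.9 CPM of footprints.

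Among the tested loci, footprint levels ran over a wider range than mRNA levels. Per 1000 codons, the middle 80% of tested loci spanned 3.30 log2 units of mRNA CPM (9.82-fold) and 6.10 log2 units of footprint CPM (68.4-fold). Loci ordered by footprint level and cut into 5 equal parts had median log2 ratios of -2.03, -0.82, 0.04, 0.89 and 1.98 from the lowest to the highest. Loci ordered by mRNA level had medians from -0.33 to 0.70, with the highest value in the most abundant mRNAs. Both levels enter the ratio, so these values describe the table and were given no test. The low end of the mRNA range is bounded by the minimum of 10 counts, which narrows it. That minimum lies at a higher CPM in mRNA, with scaled library sizes of 216490 and 241539 against 1298692 and 1407145 for footprints. It also left out 7187 loci with footprints but under 10 mRNA counts in each mRNA library. How much of the difference in range comes from this was not tested.

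Loci with a short coding sequence had somewhat higher ratios. The shortest part, 28 to 317 codons, had a median log2 ratio of 0.49, and the longest, 891 to 5384 codons, -0.28. The quartiles of these parts (-0.79 to 1.75 and -1.33 to 0.72) overlapped widely. Loci with a gene symbol in the reference table had a median of 0.27 and those without one -0.47.

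**Figure D2:**
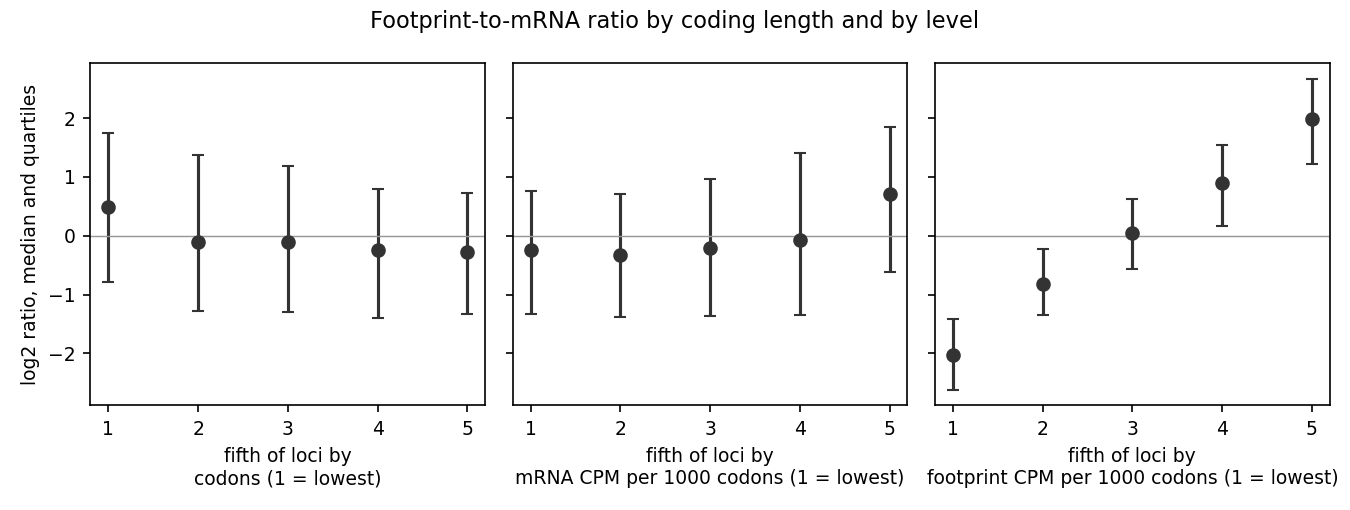
Median log2 ratio with its lower and upper quartile (bars) for tested loci cut into 5 equal parts by coding length, by mRNA level and by footprint level per 1000 codons. The medians climb from -2.03 to 1.98 with the footprint level and move between -0.33 and 0.70 with the mRNA level.

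At the top of the order, UBQ10, a polyubiquitin gene, had 21 and 30 mRNA counts and 9979 and 12299 footprints. Its log2 ratio was 6.20 ± 0.38 (SE, 2 libraries per assay, edgeR adjusted p 1.2e-16), or 73.8-fold above the centre. Polyubiquitin genes consist of near-identical repeats that several loci share, so its counts are uncertain. Loci with no symbol or with under 20 mRNA counts on average were not named by this order, and LHCA3, described below, is among those that lay above the next genes. GER3, a germin-like protein of the cell wall, had 35 and 57 mRNA counts and 5612 and 6138 footprints, a log2 ratio of 4.44 ± 0.29. PYK10, the beta-glucosidase of endoplasmic reticulum bodies, had 129 and 257 mRNA counts and 22823 and 24923 footprints, a log2 ratio of 4.40 ± 0.40, and NAI2, a component of the same bodies, reached 4.19 ± 0.30. The aspartic protease gene APA1 (4.32 ± 0.27), the plastid glutamine synthetase gene GS2 (4.27 ± 0.27) and the ascorbate peroxidase gene APX1 (4.26 ± 0.26) lay within their errors of one another. GAPC2, XTH4, CA2, FLA9 and PSBP-1, which encode a cytosolic glyceraldehyde phosphate dehydrogenase, a xyloglucan endotransglucosylase, a carbonic anhydrase, a fasciclin-like arabinogalactan protein and a subunit of the oxygen-evolving complex, had log2 ratios of 3.94 to 4.13. These 12 genes, and the 12 lowest below, were chosen among called genes with both footprint libraries beyond both mRNA libraries. The calls and the separation are therefore conditions of the choice. Each of the 12 highest had an edgeR adjusted p of at most 2.3e-12.

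At the bottom, EMB3114, named for an embryo-defective mutant, had 76 and 106 mRNA counts and 24 and 13 footprints. Its log2 ratio was -4.84 ± 0.25, or 28.7-fold below the centre (edgeR adjusted p 2.2e-18). LpxC1, LpxC3, LpxC4 and LpxC5, which encode a deacetylase of lipid A synthesis, had the same counts in every dark library (65 and 61 in mRNA, 13 and 14 in footprints), so their single value of -4.76 ± 0.28 comes from reads they share. EMB3131 followed at -4.67 ± 0.28 and GATL2, a galacturonosyltransferase-like gene, at -4.54 ± 0.29. ASY2, a relative of a meiotic chromosome axis protein, had 67 and 59 mRNA counts and 16 and 17 footprints, a log2 ratio of -4.48 ± 0.27. The carotenoid cleavage gene NCED4 (-4.11 ± 0.29), the dicarboxylate transporter gene DiT2.2 (-4.02 ± 0.30), PIRL2 (-4.0 ± 0.34) and the separase gene ESP (-3.95 ± 0.33) completed the 12 lowest named genes. All 12 had 10 to 24 footprints in each library, close to the minimum for being tested, and loci with fewer footprints are described further on.

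**Figure D3:**
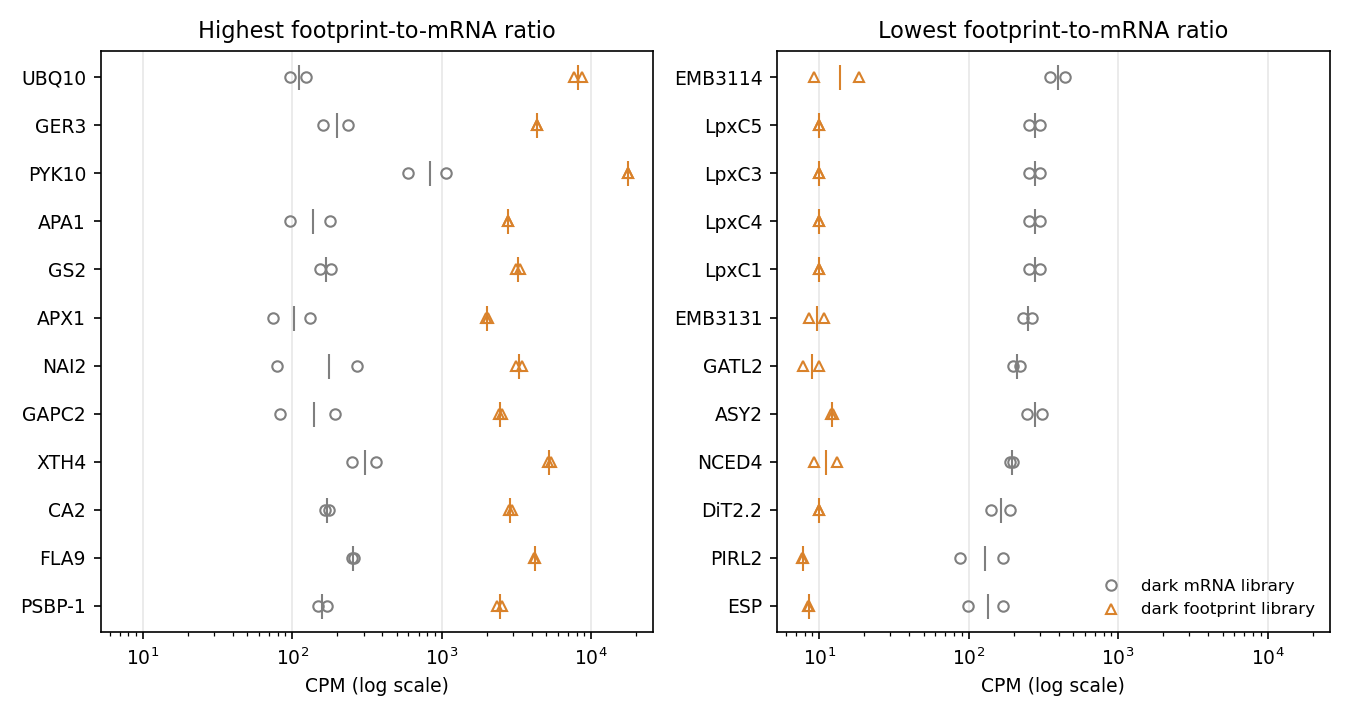
CPM on a log scale in each dark mRNA library (circles) and each dark footprint library (triangles) for the 12 highest and the 12 lowest named genes, with the mean of each pair as a vertical bar. The 24 genes were chosen among those whose groups do not overlap. The mRNA of UBQ10 lies at 97.0 and 124 CPM and its footprints at 7684 and 8740 CPM.

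The lowest ratios of all belonged to loci without a symbol in the insertion of mitochondrial DNA on chromosome 2. AT2G07739 had 1518 and 1500 mRNA counts and 16 and 15 footprints, a log2 ratio of -9.15. All 11 tested loci of the insertion were called lower, against 38.8% of all loci tested. Of the nuclear loci, 21 had counts identical to those of a mitochondrial locus, so the transcripts counted at the insertion cannot be told apart from those of the mitochondrial genome. The labels do not describe the strand or the handling of reads that match several places. AT2G07739 was named after its value was seen.

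In darkness, most tested photosynthetic genes of the nucleus had a ratio above that of the typical locus. Of 26 tested photosystem, electron transport and Rubisco genes, 24 were called higher and 1 lower, with a median log2 ratio of 2.32 against -0.08 over all loci. Over all tested loci 37.3% were called higher and 38.8% lower. RBCS1A, a small subunit of Rubisco, had 558 and 842 mRNA counts and 16072 and 16995 footprints, a log2 ratio of 2.01 ± 0.32 (edgeR adjusted p 8.1e-07), and the closely related RBCS genes share some of their sequence, so the split among them is uncertain. PSBX, a small subunit of photosystem II, stood at 4.08 ± 0.25 with 12 and 25 mRNA counts and 1819 and 1869 footprints. Within photosystem I the subunits differed: PSAG, with 260 and 401 mRNA counts and 1375 and 1403 footprints, had a log2 ratio of -0.48 ± 0.17 (edgeR adjusted p 0.012), and PSAD-2 lay at 0.26 ± 0.15. The call on PSAG was lost when any library other than mRNA replicate 1 was left out (log2 ratio -0.18 without mRNA replicate 2, -0.52 and -0.44 without footprint replicates 1 and 2, adjusted p at least 0.145), and PSAD-2 was called at 0.46 without mRNA replicate 2.

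The antenna proteins, which bind chlorophyll around the photosystems, spread more than the photosystem subunits. Of 15 tested genes, 11 were called higher and 1 lower (37.3% and 38.8% over all loci), with a median of 1.21. LHCA3, of the photosystem I antenna, had 17 and 14 mRNA counts and 2243 and 2255 footprints, and its log2 ratio of 4.62 ± 0.26 was the largest of the list. LHCB2.3 (2.70 ± 0.22) and CAB2 (2.61 ± 0.20) had high ratios on few mRNA counts, 24 and 16 for LHCB2.3 and 54 and 50 for CAB2. CAB3, a near-identical neighbour of CAB2, had 240 and 350 mRNA counts and 1349 and 1430 footprints, and its ratio of -0.32 ± 0.17 was not called (adjusted p 0.083), although it was without mRNA replicate 1 (-0.49). Reads of the near-identical CAB genes can be split among them, so the difference between CAB2 and CAB3 is uncertain. LHCB3 had the lowest ratio, -0.89 ± 0.15 on 190 and 300 mRNA counts and 775 and 774 footprints (adjusted p 2.7e-06), and missed the threshold without either footprint library (-0.95 and -0.83, adjusted p 0.0619 and 0.103). Scaled by total counts, the list's median was 0.18 with 7 higher and 5 lower, against -1.11 over all loci.

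Among genes of tetrapyrrole synthesis, the pathway to chlorophyll and haem, 11 of 13 tested were called higher and 1 lower (median 1.64). Over all loci the shares were 37.3% and 38.8%. PORA and PORB, the light-dependent protochlorophyllide oxidoreductases that build up in dark plastids, were heavily covered: PORA had 10809 and 11631 footprints on 373 and 581 mRNA counts, and PORB 12144 and 13020 footprints on 167 and 270 mRNA counts. Their log2 ratios were 2.0 ± 0.29 and 3.30 ± 0.31 (edgeR adjusted p 1.2e-07 and 9.0e-12). ALB1, a subunit of magnesium chelatase, reached 2.89 ± 0.25. HEMA1, the glutamyl-tRNA reductase at the start of the pathway, lay at 0.16 ± 0.24 and its sign changed with the mRNA library used (-0.30 without replicate 1 and 0.99 without replicate 2). GUN4, which assists magnesium chelatase, had 57 and 70 mRNA counts and 268 and 262 footprints, a log2 ratio of -0.50 ± 0.17 (adjusted p 0.0091) that was not called without mRNA replicate 2 (-0.38) or either footprint library (-0.57 and -0.42).

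Genes of the translation machinery mostly had ratios above that of the typical locus. Their calls stand beside 37.3% higher and 38.8% lower over all loci. All 14 tested cytosolic ribosomal protein genes were called higher (median 2.26), from RPS10B at 0.76 ± 0.22 to AT3G09200 at 3.42 ± 0.23, and RPS10B was not called without footprint replicate 1 (0.62, adjusted p 0.125). AT3G09200 had 13 and 16 mRNA counts and 918 and 920 footprints. Another 15 genes of the list passed the minimum in footprints but not in mRNA and were not tested. Of 21 translation factor and poly(A)-binding protein genes, 19 were called higher and 1 lower (median 1.85). LOS1, elongation factor 2, had 70 and 66 mRNA counts and 5125 and 5025 footprints, a log2 ratio of 3.66 ± 0.26. AT1G07940, one of 4 near-identical elongation factor 1-alpha loci, followed at 3.34 ± 0.28. PAB2, a poly(A)-binding protein, was the member called lower, at -0.53 ± 0.15 with 98 and 151 mRNA counts and 471 and 544 footprints, and it was not called without mRNA replicate 2 (-0.22) or either footprint library (-0.48 and -0.57). Of 21 chloroplast ribosomal proteins encoded in the nucleus, 16 were higher and 3 lower (median 1.55). RPL15 reached 3.55 ± 0.25, and AT3G54210 (-0.83 ± 0.15) and EMB3113 (-0.65 ± 0.16) were the lowest. Both lost their call without either footprint library (adjusted p 0.11 to 0.184), and EMB3113 also without mRNA replicate 2 (-0.16).

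Genes of cell expansion, which drives growth in darkness, were high almost throughout, but so were most lists of other functions. A high ratio is therefore not particular to cell expansion. Of the fifth of tested loci with the most mRNA per 1000 codons, 55.4% were called higher. All 17 tubulin and actin genes and all 13 aquaporin genes tested were called higher, against 37.3% of all loci. Their medians were 2.51 and 1.92. TUA3, an alpha-tubulin, had 43 and 39 mRNA counts and 3260 and 3485 footprints (3.80 ± 0.24), TUB9 stood at 2.43 ± 0.20, and ACT8, the lowest of the list, at 1.52 ± 0.18. The water channel gene GAMMA-TIP, of the vacuolar membrane, reached 3.74 ± 0.28. PIP1C, of the plasma membrane, was lowest at 1.06 ± 0.26 on 475 and 750 mRNA counts and 7378 and 7551 footprints, and its call was lost without either footprint library (1.02 and 1.10, adjusted p 0.16 and 0.126). PIP3, at 1.40 ± 0.27, lost its call without footprint replicate 1 (1.32, adjusted p 0.0638). Of 15 expansin, xyloglucan endotransglucosylase and cellulose synthesis genes, 14 were higher and none lower (median 2.02). XTH15 had 168 and 303 mRNA counts and 11814 and 13421 footprints, a log2 ratio of 3.19 ± 0.32. Its relative XTH33, with 23 and 24 mRNA counts and 96 and 93 footprints, lay at -0.55 ± 0.27 and was not called (adjusted p 0.058). CESA5, a cellulose synthase, lay at 0.60 ± 0.23 and was not called without mRNA replicate 2 (0.36) or either footprint library (0.54 and 0.65). Of 5 tested arabinogalactan and lipid transfer protein genes 4 were higher (median 2.11), led by AZI1 at 3.10 ± 0.25. The other 14 genes of that list were not tested. The genes whose symbol begins with AGP, a wider grouping chosen after seeing the data, held 3 higher and 3 lower among 10 tested (median -0.15). AGP9, with 336 and 407 mRNA counts and 1996 and 2056 footprints, lay at -0.11 ± 0.18.

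Genes that supply carbon and energy followed the same direction. All 16 tested genes of glycolysis and sugar metabolism were called higher, and so were all 13 genes known to rise in darkness or sugar starvation. Their medians were 2.18 and 2.51, and 37.3% of all loci were called higher. GAPC2 (4.13 ± 0.27) and the enolase gene LOS2 (3.30 ± 0.24) led the first list, and DYL1 (3.59 ± 0.24), a dormancy-associated gene, and DIN2 (3.31 ± 0.23), a dark-inducible beta-glucosidase, led the second. TPS11, a trehalose phosphate synthase-like gene, was the lowest of these at 0.39 ± 0.17 (adjusted p 0.035) and was not called without mRNA replicate 2 (0.40) or either footprint library (0.41 and 0.36). Of 19 nuclear genes listed under mitochondrial respiration, 18 were higher and 1 lower (median 1.87). The list also holds SHM1 and GLDP1, which encode enzymes of mitochondrial glycine metabolism. SHM1, a serine hydroxymethyltransferase gene, lay at 3.66 ± 0.24 and AT3G15640, a cytochrome oxidase subunit, at -0.84 ± 0.19.

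Genes of oil breakdown were mostly high, with ICL apart. Of 12 tested, 10 were higher and 1 lower (median 2.19), against 37.3% and 38.8% of all loci. PKT3, the thiolase of peroxisomal beta-oxidation, had 13 and 20 mRNA counts and 1824 and 1892 footprints (4.25 ± 0.25), and the acyl-CoA oxidase gene ACX2 reached 3.63 ± 0.23. ICL, the isocitrate lyase of the glyoxylate cycle, had the opposite make-up: 705 and 967 mRNA counts and 1833 and 1803 footprints. In CPM its mRNA was 3630 ± 528 (SD, n = 2) and its footprints 1346 ± 92.0, and its log2 ratio was -1.43 ± 0.21 (edgeR adjusted p 2.1e-07). ICL kept its direction but missed the threshold without footprint replicate 2 (-1.36, adjusted p 0.0588). The single tested seed storage gene, CRA1, lay at 1.72 ± 0.30.

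All 8 tested proteasome subunit genes were called higher (median 2.05), against 37.3% of all loci. They lay within a narrow range from RPT3 at 1.72 ± 0.18 to ATS9 at 2.71 ± 0.24, and another 19 subunit genes passed the minimum in footprints only. Of 12 chaperone genes, 10 were higher and 1 lower (median 1.78). BIP2, the chaperone of the endoplasmic reticulum lumen, had 24 and 11 mRNA counts and 1359 and 1352 footprints (3.71 ± 0.24). The heat-shock protein genes HSP101 (-1.09 ± 0.32, adjusted p 0.0029) and HSP90.1 (-0.41 ± 0.28, adjusted p 0.18) were the lowest, and HSP101 was not called without mRNA replicate 2 (-0.92, adjusted p 0.0656). Of 34 histone genes only 7 could be tested, 5 higher and 1 lower (median 1.51), and the other 27 passed the minimum in footprints only. The linker histone AT1G06760 reached 3.75 ± 0.23. AT1G09200, a histone H3 locus, lay at -0.65 ± 0.18 and was not called without mRNA replicate 2 (-0.30) or footprint replicate 1 or 2 (-0.53 and -0.76, adjusted p 0.176 and 0.05). Histone genes of one type are near-identical, so the split among them is uncertain.

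Light-signalling genes had log2 ratios from -2.74 to 3.45. Of 13 tested, 6 were called higher (46.2%, against 37.3% of all loci) and 3 lower (23.1%, against 38.8%), and their median of 0.44 fell to -0.60 when scaled by total counts. The genes named here describe single members, not the group. Of the 5 photoreceptor genes tested, 4 were called higher, against 37.3% of all loci. Sorting the list into photoreceptors and repressors followed sight of the values, so it gives no pattern for either class. PHOT1, the phototropin, had 39 and 59 mRNA counts and 2903 and 3438 footprints (3.45 ± 0.24). PHYA, the phytochrome that accumulates in darkness, had 44 and 73 mRNA counts and 3013 and 3386 footprints, a log2 ratio of 3.21 ± 0.23 (edgeR adjusted p 8.5e-15). CRY2 had a log2 ratio of 1.74 and PHYB of 1.15, while CRY1, with 46 and 47 mRNA counts and 286 and 316 footprints, lay at 0.13 and was not called. The 3 genes called lower encode repressors of light responses: SPA4 (13 and 19 mRNA counts, 15 and 13 footprints, -2.74 ± 0.34), SPA1 (20 and 19 mRNA counts, 52 and 52 footprints, -1.14 ± 0.30) and DET1 (17 and 11 mRNA counts, 39 and 44 footprints, -0.99). SPA2 (-0.06) and COP1 (0.44), which work with them, were not called. HY5, the transcription factor these repressors remove, had 0 and 3 mRNA counts and 17 and 29 footprints and was not tested. CRY1, CRY2, PHYB, DET1, SPA2 and COP1 were named after their values were seen.

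**Figure D4:**
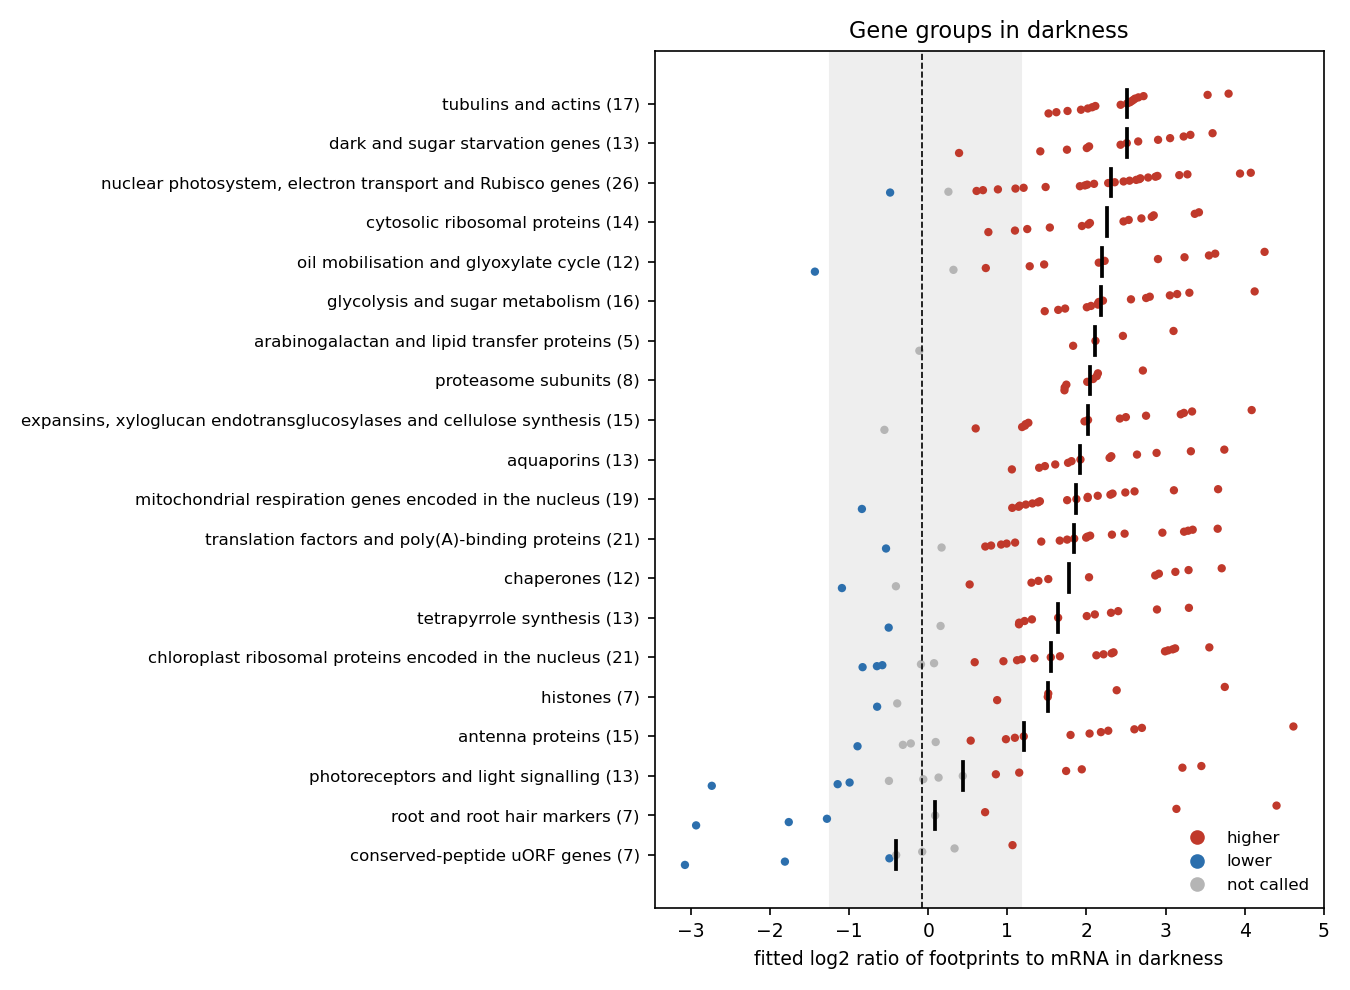
Fitted log2 ratio in darkness of every tested member (points, coloured by the call) of 20 gene lists with at least 5 tested members, each list's median as a black bar and its number of tested members in parentheses. The dashed line is the median of all 4408 tested loci (-0.08) and the grey band their quartiles. Tubulins and actins lie at 1.52 or above, and conserved-peptide uORF genes run from -3.07 to 1.07.

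Genes whose leader holds a uORF with a conserved peptide were the list with the lowest median, -0.40, or -0.33 relative to all loci, with 1 called higher and 3 lower among 7 tested. The 3 called lower are 42.9% of those tested, close to the 38.8% of all loci, and 22 of the 29 genes on the list were not tested. SAMDC, the S-adenosylmethionine decarboxylase of polyamine synthesis, had 239 and 389 mRNA counts and 504 and 547 footprints. In CPM its mRNA was 1357 ± 358 (SD, n = 2) and its footprints 388 ± 0.458, and its log2 ratio was -1.81 ± 0.15 (edgeR adjusted p 5.1e-13), 3.51-fold below the centre. CPUORF7 had 22 and 17 mRNA counts and 13 and 14 footprints (-3.07 ± 0.33). VTC2, the GDP-galactose phosphorylase of ascorbate synthesis, lay at -0.49 ± 0.22 with 30 and 38 mRNA counts and 125 and 161 footprints. Its adjusted p of 0.047 rose above 0.05 when any library was left out (0.0541 without mRNA replicate 1, 0.294 without mRNA replicate 2, 0.381 and 0.138 without footprint replicates 1 and 2). The sucrose-repressed transcription factor genes bZIP1 (-0.08) and bZIP2 (-0.40), named after their values were seen, were not called, and SIP3, a protein kinase, was higher (1.07 ± 0.24, adjusted p 0.00015). HB-1 (AT3G01470) lay at 0.33 ± 0.20 with 31 and 77 mRNA counts, and turned to -0.10 without mRNA replicate 1 and to 1.10 without mRNA replicate 2. SAC51, the best-known polyamine-regulated member, had 9 and 13 mRNA counts and 18 and 17 footprints and was not tested. Where ribosomes sat within a leader was not analysed here.

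The root genes had no common direction. Of 7 tested, 3 were called higher and 3 lower (median 0.09), or 42.9% each, near the 37.3% and 38.8% of all loci. PYK10 and HA2, a plasma membrane proton pump (3.14 ± 0.26), were high. SHV2 (31 and 12 mRNA counts, 14 and 19 footprints, -2.93 ± 0.37), needed for root hair growth, and SHR (20 and 25 mRNA counts, 40 and 38 footprints, -1.76 ± 0.30), a transcription factor that patterns the root, were low. Of the 4 tested loci that the reference table does not class as protein-coding, 1 was higher and 3 were lower.

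Many loci had counts in one assay alone, and no ratio was fitted for them. The dark mRNA libraries held 989 loci that passed the minimum there and had under 10 footprints in each footprint library, of which 420 had none. They held 45.1% and 35.1% of the nuclear mRNA counts. The 3 loci with the most mRNA counts were AT1G40104 (77226 and 54308), AT2G08986 (72648 and 51622) and AT2G07981 (11529 and 8240), followed by AT3G41762 (3333 and 2585) and AT7SL-1 (709 and 973), all with 0 footprints in both libraries. AT7SL-1 carries the name of the RNA of the signal recognition particle, which is not a messenger. For a count of 0, 3 counts give an upper limit of 0.000105% and 0.000096% of the nuclear footprints, for counting error only. The insertion of mitochondrial DNA supplied 44 of the 989 loci.

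The reverse was more frequent. Footprints passed the minimum at 7187 loci with under 10 mRNA counts in each mRNA library, 641 of them with no mRNA count at all. These loci held 21.2% and 21.6% of the nuclear footprints and had a median length of 309 codons, against 522.5 for the tested loci. GRP3S, a small glycine-rich protein, had 0 and 2 mRNA counts and 6232 and 7599 footprints. UBQ14, a polyubiquitin gene, had 1 and 6 mRNA counts and 3565 and 4540 footprints, and AT1G12080 had 3 and 7 mRNA counts and 3283 and 4000 footprints. AGP4, an arabinogalactan protein, and LHCB5, a minor antenna protein, had at most 4 mRNA counts and 2918 to 3224 footprints per library. ELF5A-1, a translation factor, had no mRNA count and 14 and 12 footprints. The part that the shorter coding length and the lower depth of the mRNA libraries play in these counts was not tested.

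The order of loci in darkness largely held in blue light. In one fit to all 8 libraries, the dark and the blue-light log2 ratio had a Spearman correlation of 0.876 over the 4408 loci, which share their length, sequence and mappability in both conditions. Of the loci called higher in darkness 95.2% had a ratio above 0 in blue light, and of those called lower 88.8% had one below 0. Over all tested loci 84.6% had the same sign in both conditions. UBQ10 stood at 6.03, PHYA at 3.14, PHOT1 at 3.20 and GATL2 at -5.79 in blue light. The difference between blue light and darkness was called at 580 loci (13.2%), 295 higher and 285 lower in blue light.

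**Figure D5:**
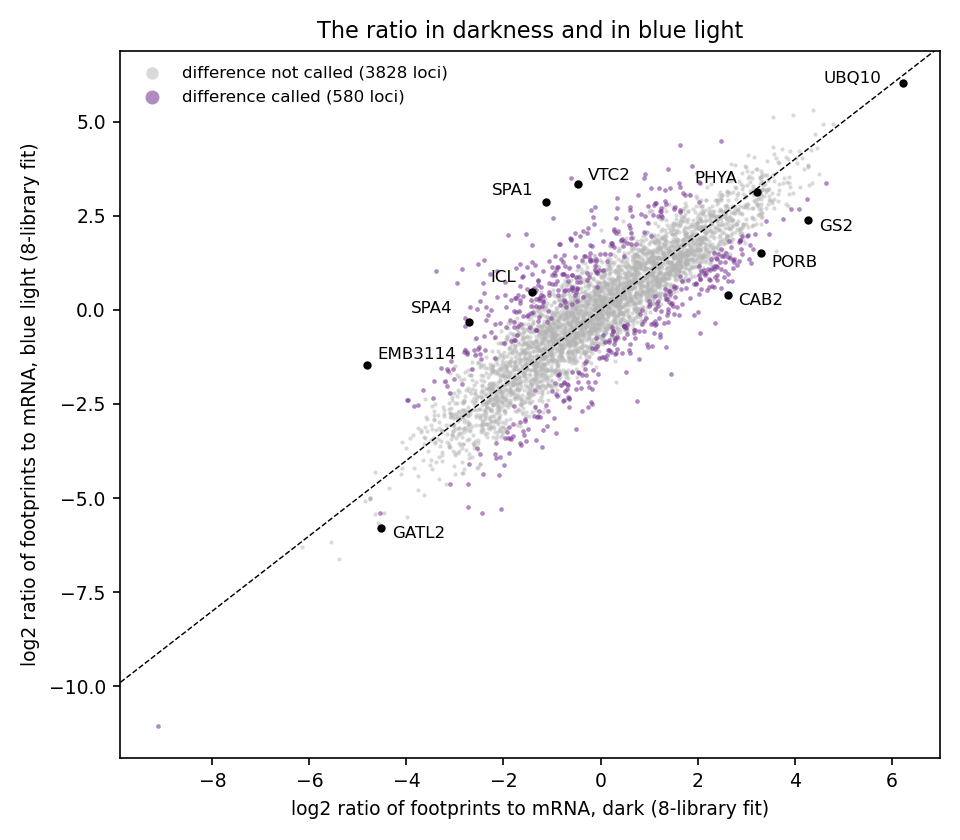
Fitted log2 ratio in darkness (horizontal) against that in blue light (vertical) for each of the 4408 tested loci, both from one fit to 8 libraries. The dashed line marks equal ratios and the 580 loci whose difference was called are in purple. VTC2 and SPA1 lie above the line at 3.33 and 2.88 in blue light, CAB2, GS2 and PORB below it at 0.41, 2.38 and 1.52.

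The median dark ratio of several groups stood apart from their median in blue light. Dark medians here are from the fit to the 4 dark libraries and blue-light medians from the fit to all 8. Over all tested loci the medians were -0.08 and 0.10, and the difference was called at 13.2%. The dark median in the fit to all 8 libraries was -0.06. The median of the photosystem, electron transport and Rubisco list was 2.32 in darkness and 1.14 in blue light, and the difference was called for 18 of its 26 genes. The antenna list went from 1.21 to 0.11, with 9 of 15 genes called. The histones went from 1.51 to 0.34 with 4 of 7 genes called. The conserved-peptide uORF genes went the other way, from -0.40 to 1.16 with 3 of 7 genes called. Only these 7 of the 29 listed genes were tested. The blue-light median is the value of HB-1 (AT3G01470), whose own difference was not called (edgeR interaction test, adjusted p 0.19). Of the genes called, SIP3 had only 10 and 3 mRNA counts in blue light. The median of the light-signalling genes also rose, from 0.44 to 1.56, but 2 of 13 were called, near the 13.2% of all loci. The tubulins and actins had medians of 2.51 and 2.60 with 1 of 17 genes called, and the cytosolic ribosomal proteins 2.26 and 2.32 with 3 of 14 called. The mRNA of CAB2 went from 54 and 50 counts in darkness to 1813 and 1655 in blue light, and its footprints from 1777 and 1972 to 27624 and 21530. VTC2 showed the reverse make-up: its mRNA counts were 30 and 38 in darkness and 37 and 40 in blue light, while its footprints were 125 and 161 in darkness and 4775 and 3522 in blue light.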

How the data were processed

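The deposited files hold whole-number read counts per transcript model, raw and with 1 file per library, as the authors made them. Another deposited column resembles the coding length in codons. Per the submitters' processing notes, CASAVA 1.8, Bowtie2 2.1.0, TopHat2 2.0.9 and the genome build TAIR10 were used. The counting tool and its strand setting are not given in the sources used here. The 6285 of 41671 models without a length held no counts. One model per locus was kept, the longest, with the lowest model number on ties. Locus tags were looked up in a RefSeq table of TAIR10.1, where 26719 nuclear loci were found and 10376 had a symbol. Coordinates are left out because the releases differ.

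Footprints were compared with mRNA in the 4 dark libraries by the quasi-likelihood F-test of edgeR 4.0.16 in R 4.3.3, two-sided, with TMM scaling, on loci that passed filterByExpr at a minimum count of 10 in the mRNA pair and in the footprint pair. The threshold was 0.05 for p-values adjusted by Benjamini and Hochberg's method across the 4408 tested loci. Scaling used those loci, and CPM refer to the scaled library size. The SE is the absolute log2 ratio divided by the square root of F. It lay below the counting error alone at 945 loci. One dispersion served both assays: the common value was 0.00444, against 0.0304 between the mRNA libraries and 0.00178 between the footprint libraries, so the mRNA side varied more than the test assumed. Simulated counts used each locus's mean over the 4 dark libraries, these library sizes and the fit's dispersions. On them, the step recovered 79 of 100 loci changed by 1 log2 unit and 100 of 100 changed by 2, with 11 false calls among 4208 unchanged loci. Simulated mRNA had the same dispersion as footprints and most loci were unchanged, where the dark test called 76.1%. The false calls therefore do not show the error rate at the wider spread of the mRNA libraries. Blue-light ratios came from a fit to all 8 libraries, whose interaction of assay and light gave the difference between conditions. Intervals and limits cover counting error only, and reads without molecular identifiers are not independent molecules.

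The comparison, the gene lists and the rule for naming genes were chosen with earlier results of these data known, and the lists are general knowledge, not the study's. The named genes are, among called protein-coding loci with a symbol, at least 20 mRNA counts on average and groups apart in CPM, the 12 highest and 12 lowest ratios, then the 2 highest and 2 lowest tested members of each list, 12 genes always named, and the 5 loci with the most counts among those counted in one assay. Alternatives were DESeq2 1.42.0 (size factors and Wald test), limma 3.58.1 voom with a weight per assay, total-count scaling, other filters, a test against a 2-fold difference, a fit to all 8 libraries, the replicate number as a block, each library left out, the first model per locus and organelle loci kept. Footprints and mRNA with the same replicate number did not deviate together (correlation 0.0028), so the numbers were not taken as pairs.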

Additional observations from a re-analysis of the deposited data

Results flagged for a closer look

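For 25 named genes the log2 ratio of footprints to mRNA differed between blue light and darkness by the interaction of assay and light in the fit to all 8 libraries (edgeR quasi-likelihood test, Benjamini-Hochberg adjusted p under 0.05). Values are blue light minus darkness. The ratio was lower in blue light for CAB2 (-2.22), GS2 (-1.91), PORB (-1.80), LHCB2.3 (-1.61), RBCS1A (-1.61), HTB4 (-1.47), PSBX (-1.41), AT1G06760 (-1.34), LHCA3 (-1.26), PSAG (-1.20), PORA (-1.09) and AGP9 (-0.67). It was higher in blue light for SPA1 (4.0), VTC2 (3.80), EMB3114 (3.36), SPA4 (2.40), ICL (1.88), DiT2.2 (1.59), HSP101 (1.54), SIP3 (1.42), PAB2 (1.40), SAMDC (1.34), CESA5 (1.14), TUB4 (1.01) and GUN4 (0.71).

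With each of the 8 libraries left out in turn, an alternative added after seeing the data, all 25 kept their direction and 14 were called every time. The other 11 missed the threshold at least once: PSBX was called in 6 of the 8 fits, TUB4, HSP101 and DiT2.2 in 4, PORA, AGP9 and CESA5 in 3, LHCA3 and GUN4 in 2, and AT1G06760 and SIP3 in 1.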

How the results depend on the processing

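The 1642 higher and 1711 lower calls moved by more than 1.5 times under total-count scaling (834 and 2711), no filter on low counts (6503 and 8113 of 25585 loci), a filter passed in either assay (4965 and 4475 of 15642), at least 50 counts in each library (186 and 173 of 406) and a test against a 2-fold difference (962 and 951, fewer by construction). The counts at least 2-fold away moved with them: 507 and 2323, 6160 and 7905, 4523 and 4155, and 112 and 117 under the first 4 of these. The share of higher calls among all calls was 49% in the main test and 23.5% under total-count scaling. The DESeq2 Wald test called 1422 higher and 1326 lower, and voom 1540 and 1660. Under the DESeq2 Wald test 9 named genes missed the threshold: PSAG, GUN4, EMB3113, PAB2, CESA5, TPS11, HSP101, AT1G09200 and VTC2. TPS11 and VTC2 also missed it under voom. VTC2 missed it with DESeq2 size factors, in the fit to all 8 libraries and with organelle loci kept. Leaving out each library gave 1374 to 1611 higher and 1469 to 1513 lower. With the replicate number as a block the calls were 1584 and 1677, and PSAG (-0.46), TPS11 (0.39) and VTC2 (-0.49) missed the threshold, with no other named gene losing its call.

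Of the 107 named genes, 9 changed sign under at least 1 alternative. Total-count scaling shifts every locus down by about the same amount, so ratios between 0 and that shift turn by construction: PSAD-2 (-0.78), HEMA1 (-0.88), RPS10B (-0.27), eIFiso4G2 (-0.86), HB-1 (-0.70), CESA5 (-0.43), SDP1 (-0.71) and TPS11 (-0.64). With the filter passed in either assay, PSAD-2 (-0.25), HEMA1 (-0.35), eIFiso4G2 (-0.34), HB-1 (-0.17), SDP1 (-0.19) and TPS11 (-0.12) turned. With at least 50 counts, PSAD-2 (-0.29) and TPS11 (-0.16) did. AGP9 turned with no filter (0.020), and HEMA1 (-0.30) and HB-1 (-0.10) without mRNA replicate 1, against 0.99 and 1.10 without mRNA replicate 2. The cause was not tested. The planned removal of loci that overlap one on the opposite strand was not run, since the reference table gives no strand. Both alternatives chosen after seeing the data, removing loci that overlap any other (1245 and 1288 of 3317) and removing loci with shared counts and the mitochondrial insertion (1627 and 1699 of 4382), reversed no named gene. Loci with few mRNA counts were not tested.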

Other observations

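Families read from the letters that open a gene symbol, a grouping chosen after seeing the data, showed groups that the lists above do not hold. Of 24 such families with at least 8 tested members, 5 had the lowest median log2 ratios in darkness. They were PUB (U-box ubiquitin ligases), CYP (mostly cytochrome P450 enzymes), WRKY (transcription factors), UGT (glycosyltransferases) and HB (homeobox genes). Their medians were -1.49, -1.13, -0.90, -0.89 and -0.80. Of their tested members, 9 of 11, 27 of 46, 7 of 9, 14 of 21 and 7 of 13 were called lower, against 38.8% of all loci tested. The families were picked for their low medians, so shares above 38.8% follow from that choice. Members under the minimum in mRNA counts had no ratio and are left out of these counts. A symbol's opening letters can join unrelated genes, so these counts describe the names. The CYP family holds CYP5 (192 codons, log2 ratio 0.77, called higher), which is not a P450 enzyme.

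PUB38 had 46 and 28 mRNA counts and 16 and 22 footprints (log2 ratio -3.51 ± 0.31), and PUB13 was the only member of its family called higher (0.68 ± 0.22). WRKY14 had 33 and 22 mRNA counts and 14 and 17 footprints (-3.38 ± 0.32), and no WRKY gene was called higher. Among the P450 genes, CYP89A2 was lowest (-3.35) and CYP83B1, of indole glucosinolate synthesis, highest (1.58). In blue light the median of the WRKY genes was -0.93 and that of the UGT genes -0.07.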
